A study of Mus musculus with 29 samples.

Results

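The genes described here are 46 genes that make up the DNA replication machinery and its S phase supply, chosen by name and kept where at least 10 counts were found in at least 3 libraries. All 46 met that rule, out of 55414 gene identifiers counted. RNA was sequenced from CD4+ T cells taken from the spleens of C57BL/6-Foxp3tm1Flv/J mice, in which a red fluorescent protein (RFP) reports the Foxp3 gene. All cells were stimulated with anti-CD3 at 1.25 µg/ml, anti-CD28 at 2.5 µg/ml and IL-2 at 50 IU/ml in medium with 0.5 mM glucose. Cultures then differed in TGF-beta (3 ng/ml or none), lactic acid (10 mM or none) and time (72 or 24 h), and cells were sorted on RFP into RFP+ cells (Treg) and RFP- cells (Tcon). The 10 groups were Treg at 72 h with TGF-beta, with or without lactic acid, and Tcon at 72 h and at 24 h, each with TGF-beta and lactic acid, TGF-beta alone, lactic acid alone, or no additions. Each group had 3 libraries except Tcon at 72 h without additions, which had 2. Replicate 1 was labelled male and replicates 2 and 3 female, and nothing in the labels says that replicates came from separate animals, so p-values measure only the spread between these libraries.

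A T cell that leaves rest first licenses its replication origins: the origin recognition complex (Orc1, Orc6) with Cdc6 and Cdt1 loads the Mcm2 to Mcm7 helicase on DNA before S phase begins. In S phase, Cdc45, the Gins proteins and Mcm10 activate that helicase, primase and polymerases copy the strands behind it, and the clamp Pcna holds polymerases on DNA. E2f1 and its relatives are transcription factors that switch on most of these genes once the pocket proteins of the Rb family are phosphorylated, and cyclin E (Ccne1, Ccne2) drives that switch. TGF-beta is known to slow the cell cycle of T cells and to induce Foxp3 in naive CD4+ T cells, and high extracellular lactic acid accompanies glycolytic tissue such as tumours.

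Because these genes are textbook E2F targets, their promoter windows were searched for E2F-like letters. RefSeq windows (build GRCm38.p6, 250 bases before to 50 bases after a gene's start) were matched for 38 of the 46 genes, in 43 windows. The E2F-like words were TTCCCGC, its variant TTCGCGC, the variant TTGCCGC and lastly TTGGCGC, and at least 1 of them stood on either strand in 26 of the 43 windows (60.5%), against 9.57% of all 32851 windows. These words can overlap one another, and TTGGCGC can share letters with CCAAT read on the other strand. CCAAT, searched on both strands, was found in 55.8% of the members' windows and 37.4% of all windows, and both kinds of word in 37.2% and 3.66%. The words TTTGAA and its variant TTCGAA, cell cycle homology words common in G2 and M phase promoters and also searched on both strands, stood in 16.3% of the members' windows and 19.2% of all. Of the 38 genes, 24 had an E2F-like word in a window, and those without one included Tk1, Tyms, Ccne1, Mcm10, Cdc45, E2f1, Pcna and Mcm2. A match is a description of letters only. Stretches of 90 bases from 6 genes are shown, chosen after their values were seen, and all 6 hold an E2F-like word. Genes without such a word are not shown, among them Tk1, Tyms and Ccne1, which also rose with time. The stretches cover the main patterns below: Rrm2 and Cdc6 rose with time, Mcm5 and Mcm6 fell with time in medium without additions, and Orc1 and Chaf1a fell with TGF-beta at 24 h with lactic acid present. They run 5′ to 3′ on the gene's strand, and capitals mark the E2F-like letters on either strand.
Rrm2, chr12:24708004-24708093, plus strand: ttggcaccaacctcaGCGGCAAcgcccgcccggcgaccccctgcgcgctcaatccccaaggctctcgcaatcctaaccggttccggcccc
Cdc6, chr11:98907993-98908082, plus strand: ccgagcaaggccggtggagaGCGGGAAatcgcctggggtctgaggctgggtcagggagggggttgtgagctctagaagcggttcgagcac
Mcm5, chr8:75109325-75109414, plus strand: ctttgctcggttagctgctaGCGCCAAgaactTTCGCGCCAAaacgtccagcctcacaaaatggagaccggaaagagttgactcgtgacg
Mcm6, chr1:128359745-128359834, minus strand: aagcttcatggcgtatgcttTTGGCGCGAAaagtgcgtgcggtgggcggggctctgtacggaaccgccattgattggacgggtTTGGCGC
Orc1, chr4:108579364-108579453, plus strand: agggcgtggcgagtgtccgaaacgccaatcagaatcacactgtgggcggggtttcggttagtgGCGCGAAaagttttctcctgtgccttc
Chaf1a, chr17:56040326-56040415, plus strand: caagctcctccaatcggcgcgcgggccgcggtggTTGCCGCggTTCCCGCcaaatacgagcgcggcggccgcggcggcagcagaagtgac

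Libraries held 9754511 to 14315313 gene counts, and the 46 genes took 0.518% to 0.972% of them. The cells carried T cell transcripts throughout, with Cd4 at 419 to 669 CPM (counts relative to the TMM-scaled library size) and Cd3e at 256 to 572 CPM. Foxp3, the gene behind the sort, stood at 363 to 573 CPM in Treg with TGF-beta and lactic acid, 153 to 303 CPM in Treg with TGF-beta, and 35.7 to 59.8 CPM and 15.4 to 35.6 CPM in the matching Tcon. The summed B cell list of 8 genes was nearly all Ighm (80.8 to 295 CPM), with Cd79b and Ighd reaching 4.06 and 3.35 CPM and Cd79a, Cd22, Pax5 and Ms4a1 at most 0.770 CPM. The 8 myeloid genes summed to 1.97 to 5.53 CPM, mostly Cd68, and Cd14, S100a8 and S100a9 had no counts in any library. The 8 CD8 and natural killer genes summed to 60.4 to 204 CPM, mostly Nkg7 (up to 113 CPM) and Eomes (up to 135 CPM), with Cd8a reaching 16.1 CPM and Ncr1 0.159 CPM. Libraries of a group were not interchangeable. At 24 h, replicate 3 gave the lowest value for 44, 46, 46 and 45 of the 46 genes in the 4 media, in the order TGF-beta with lactic acid, TGF-beta, lactic acid and no additions. At 72 h, replicate 1, the male one, was lowest for 36 and 38 genes in Treg with and without lactic acid, and for 44, 45, 20 and 39 in Tcon of the same 4 media. Same-numbered libraries of a time point deviated together, though at 72 h replicates 2 and 3 of different groups at times did so as much. For each comparison within a time, the count of members is also given with replicates paired where that moves it by more than 1.5 times. Single genes are given with replicates paired only in part.

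**Figure D1:**
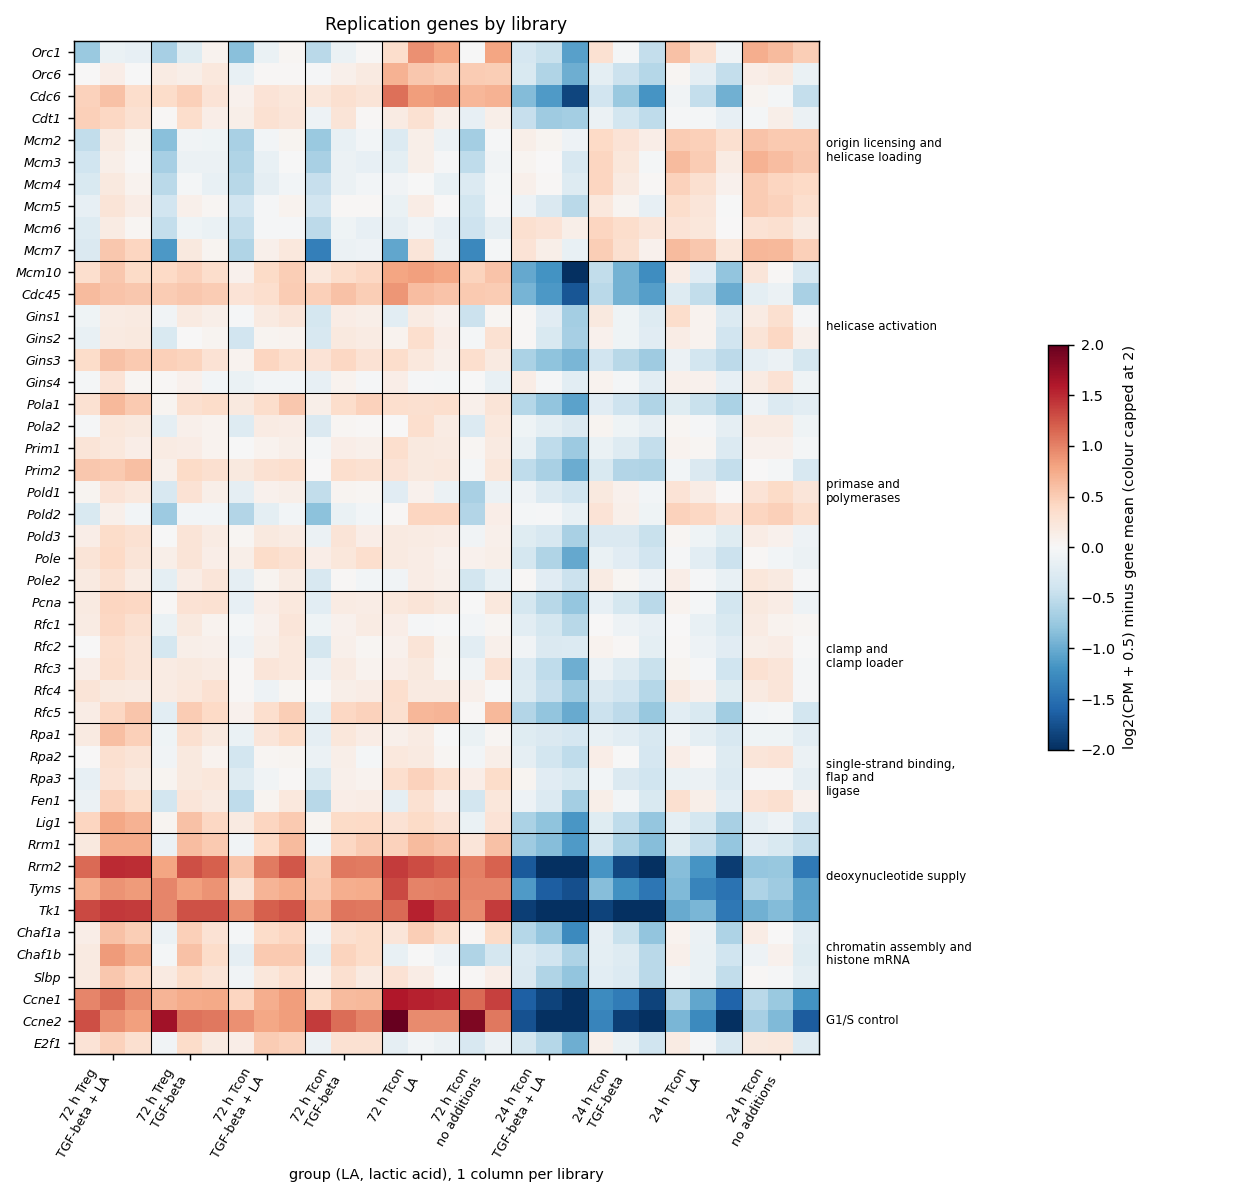
Level of each of the 46 genes (rows, grouped by role) in each of the 29 libraries (columns, by group), as log2(CPM + 0.5) minus the gene's mean over all libraries, with colour capped at 2. The group means of Ccne1, Ccne2, Rrm2, Tyms and Tk1 are all higher at 72 h than at 24 h, while Mcm2 to Mcm7 each have their highest group mean at 24 h.

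The genes spread unevenly over the 10 groups. Tk1 (thymidine kinase of the salvage pathway) had group means 14.4-fold apart, Ccne2 14.1-fold, Rrm2 (the S phase subunit of ribonucleotide reductase) 12.5-fold, Ccne1 11.3-fold, Tyms (thymidylate synthase) 6.14-fold and Cdc6 4.55-fold. In 35 of the 46 genes the lowest group mean was that of Tcon at 24 h with TGF-beta and lactic acid. The highest mean was in Treg at 72 h with TGF-beta and lactic acid for 21 genes, in Tcon at 72 h with lactic acid alone for 12, and in Tcon at 24 h without additions for 10. In bulk RNA, fewer cells in S phase and less transcript per cell cannot be told apart.

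At 72 h compared with 24 h in medium without additions, genes for deoxynucleotide supply, cyclin E and some initiation factors rose, and the Mcm2 to Mcm7 helicase genes fell. Of the 46 genes, 11 rose, against 27.1% of all 14375 tested genes, and 9 fell, against 18.4%. In total 43.5% of the members and 45.5% of all genes were called, so the number called was near the background and the pattern lay in which genes went which way. All 6 helicase genes fell and all 4 deoxynucleotide genes rose. Without replicate 1 at 72 h, the male library of 2, 9 members rose and none fell, with 1 library left at that time, assumed to vary like the other groups. With all 6 male 72 h libraries left out, which also changes the shared spread, 8 of the 9 falls were called, all but Pole2.

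Mcm2 stood at 271 and 423 CPM at 72 h, against 641, 625 and 625 CPM at 24 h without additions. The 2 later libraries lay below the 3 earlier ones, and the log2 fold change was -0.86 ± 0.25 (± SE, edgeR's quasi-likelihood test with Benjamini-Hochberg adjusted p = 0.00657). Mcm7, with 106 and 254 CPM at 72 h and 412, 409.8 and 364 CPM at 24 h, fell by 1.13 ± 0.42 (edgeR adjusted p = 0.0316). Its low value of 106 CPM came from the male library. Mcm3 and Mcm5 fell by 0.89 and 0.62, and Mcm4 and Mcm6 by 0.61 and 0.56, on the log2 scale. Pold1 and Pold2, subunits of lagging-strand polymerase delta, and Pole2, a subunit of polymerase epsilon, fell with them, by 0.65, 0.60 and 0.39.

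In the other media the calls among the 6 helicase genes were as follows. With lactic acid alone, Mcm3 alone of them was called lower (-0.47 ± 0.19, edgeR adjusted p = 0.0423). With TGF-beta alone, Mcm2, Mcm3, Mcm4 and Mcm6 were called lower, with log2 changes of -0.56, -0.51, -0.43 and -0.59. With both, only Mcm6 was called lower, at 643 ± 112 CPM at 72 h and 846 ± 64.2 CPM at 24 h (SD, n = 3 each). Mcm2 stood there at 276, 415 and 449 CPM at 72 h and 469, 447 and 404 CPM at 24 h, so that its libraries at 24 h lay below all of those without additions at that time. The number called is no test of a difference between media. With a replicate block within time, 4 of the 6 were lower with both additions. All 6 were lower with TGF-beta alone, with lactic acid alone and without additions. Of all genes, 31.6%, 32.1%, 28.7% and 25.6% were called lower in that order of media.

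Cyclin E and deoxynucleotide genes rose in every medium. Tk1 stood at 84.9, 102 and 107 CPM at 72 h, against 11.6, 7.89 and 4.48 CPM at 24 h with TGF-beta and lactic acid. The 2 times did not overlap, and the rise was 12.3-fold (3.62 ± 0.23 log2, edgeR adjusted p = 1.63e-11). Without additions, Tk1 stood at 85.2 and 118 CPM at 72 h and 22.5, 24.1 and 21.1 CPM at 24 h, a rise of 4.49-fold. Rrm2 rose 9.44-fold with both additions, 5.84-fold with TGF-beta, 5.93-fold with lactic acid and 4.15-fold without additions. Tyms rose 4.24-, 3.57-, 5.04- and 3.42-fold in the same order of media.

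Ccne1, the first cyclin E gene, stood at 109.9 and 129.7 CPM at 72 h, against 34.1, 29.6 and 21.6 CPM at 24 h without additions, and rose 4.20-fold (edgeR adjusted p = 5.3e-08). Ccne2, its paralogue, stood at 136 and 77.7 CPM at 72 h and 23.0, 19.8 and 11.4 CPM at 24 h, and rose 5.87-fold (edgeR adjusted p = 8.23e-06). For Ccne2 it was the male library that stood high at 72 h, at 136 CPM without additions and 156 CPM with lactic acid, and both genes were called with that library left out. E2f1 was called higher at 72 h in 1 medium of the 4, with both additions (69.5 ± 9.67 CPM at 72 h and 34.9 ± 7.42 CPM at 24 h, SD, n = 3 each, edgeR adjusted p = 5.23e-05). Without additions it stood at 45.9 ± 4.60 CPM (n = 2) at 72 h and 55.9 ± 9.90 CPM (n = 3) at 24 h, which was not called (edgeR adjusted p = 0.235).

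**Figure D2:**
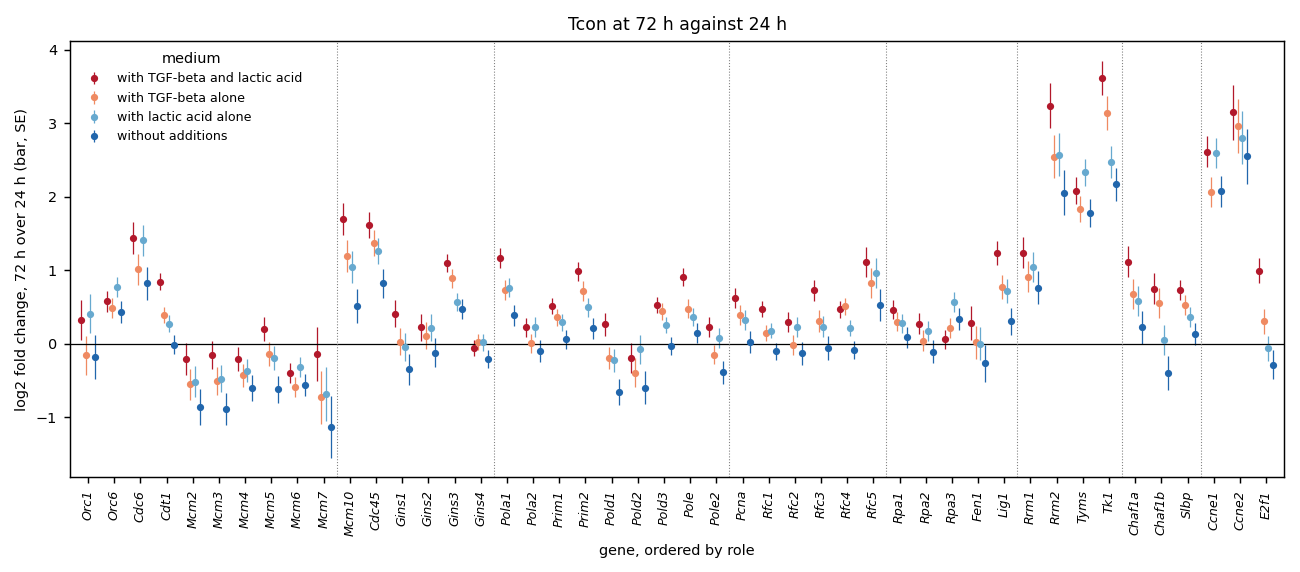
Log2 fold change of each of the 46 genes at 72 h over 24 h in Tcon (points, with SE bars), coloured by medium, with genes ordered by role and dotted lines between roles. Tk1, Rrm2, Tyms, Ccne1 and Ccne2 lie above 1.7 in all 4 media, and Mcm2, Mcm3, Mcm4 and Mcm6 lie below 0 in all 4.

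Cdc6, Orc6, Cdc45 and Gins3 rose in all 4 media, while Orc1, Gins1, Gins2 and Gins4 were called in none. Cdc6, which loads the helicase with Cdt1, stood at 175, 146 and 149.7 CPM at 72 h, against 77.7, 58.4 and 41.4 CPM at 24 h with lactic acid, and rose 2.65-fold (edgeR adjusted p = 8.84e-06). The 72 h libraries all lay above the 24 h ones. Cdc45, part of the active helicase, rose 1.76- to 3.07-fold over the 4 media. Mcm10, which is needed for helicase activation and is no subunit of Mcm2 to Mcm7, rose 2.06-, 2.29- and 3.24-fold with lactic acid, TGF-beta and both. Without additions its change was 0.51 ± 0.23 log2, which was not called (edgeR adjusted p = 0.079). Rrm1, Orc6, Gins3 and Pola1 (the catalytic subunit of polymerase alpha) were called higher in all 4 media.

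Over all roles, more genes were called higher than lower in the 3 media with additions. With lactic acid alone 20 genes rose and 1 fell, against 26.5% and 20.1% of all genes. With TGF-beta alone 24 rose and 4 fell, against 28.0% and 24.8%. With both, 28 rose and 1 fell, against 24.4% and 23.0%. The median log2 change of the 46 genes was 0.55 with both, 0.37 with TGF-beta, 0.27 with lactic acid and -0.02 without additions, while the median over all genes lay between -0.02 and 0.05. Under another library scaling (RLE) the split with lactic acid alone was 19 higher and 4 lower. Among polymerase and primase genes, clamp and loader genes, and strand-handling genes, 5 of 9, 5 of 6 and 2 of 5 were called higher with both additions, and 1, 0 and 0 without additions. Lig1, the ligase that seals Okazaki fragments, stood at 272, 322 and 345 CPM at 72 h, against 155, 137 and 107 CPM at 24 h with both additions, a rise of 2.36-fold without overlap (edgeR adjusted p = 1.88e-06). Slbp, which binds the stem loop of histone mRNA, and Chaf1a, a subunit of the replication-coupled histone chaperone, rose 1.65-fold and 2.17-fold there and were not called without additions (0.14 and 0.22 log2). The summed CD8 and natural killer list was 142 to 204 CPM at 72 h, against 62.1 to 67.8 CPM at 24 h with both additions, and 65.4 to 138 CPM against 127 to 148 CPM without additions, and its part in these results was not tested.

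Neighbouring pathways were measured beside them. All 20 of 20 G2 and M phase genes rose in each of the 4 media, by a median of 2.83 log2 without additions and 4.26 with both. Mki67, the Ki-67 antigen of cycling cells, stood at 655 ± 111 CPM (n = 2) at 72 h and 43.1 ± 6.06 CPM (n = 3) at 24 h without additions, a log2 rise of 3.92 ± 0.28 (edgeR adjusted p = 1.61e-10). Of 19 nucleotide synthesis genes tested, 10 fell and 2 rose without additions; those that fell included the purine gene Gart (-1.08 ± 0.39 log2, edgeR adjusted p = 0.0265) and the pyrimidine gene Cad (-0.97 ± 0.37, edgeR adjusted p = 0.0373). Mthfd2, a mitochondrial folate enzyme, rose by 1.27 ± 0.19 (edgeR adjusted p = 1.02e-05). Samhd1, which breaks down deoxynucleotides, fell, with 226 ± 26.9 CPM at 72 h and 904 ± 266 CPM at 24 h with TGF-beta (SD, n = 3 each, edgeR adjusted p = 8.29e-07). Among the other licensing and firing factors 5 of 14 rose and 4 fell without additions, and among the other fork factors 3 of 15 rose and 3 fell. Of 12 genes of the E2F and pocket protein families 6 rose and 1 fell, of 10 S phase chromatin genes 2 rose and 1 fell, and of 10 replication checkpoint genes none rose and 3 fell. Without additions 27.1% of all genes rose and 18.4% fell, and the fork and chromatin counts were near or below those shares.

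TGF-beta lowered replication genes at 24 h. Without lactic acid 9 of the 46 genes fell and none rose, against 3.35% of all genes lower and 7.96% higher. With lactic acid 18 fell and none rose, against 4.38% and 8.06%. With replicates paired within time, 36 fell without lactic acid and 39 with it, against 15.1% and 15.1% of all genes. Lower values in every same-numbered pair were seen for 44 genes without lactic acid and 43 with it, against 30.4% and 29.6% of all genes. The median log2 change was -0.31 without lactic acid and -0.41 with it, against 0.00 and 0.01 over all genes. By role, with lactic acid and without pairing, 4 of 10 licensing genes, 3 of 6 helicase activation genes, 3 of 9 polymerase and primase genes, 3 of 6 clamp and loader genes, 2 of 4 deoxynucleotide genes, 1 of 3 chromatin genes and 2 of 3 G1/S genes fell, and none of 5 strand-handling genes. With replicates paired these counts were 9, 5, 8, 5, 3, 3 and 3 in the same order, and 3 of 5 strand-handling genes fell.

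The 2 genes with the largest falls at 24 h were Tk1 and Mcm10. Tk1 stood at 11.9, 9.54 and 7.49 CPM with TGF-beta, against 22.5, 24.1 and 21.1 CPM without additions, with no overlap. It was 2.33-fold lower (-1.22 ± 0.23 log2, edgeR adjusted p = 0.0006), and 2.56-fold lower in the presence of lactic acid (edgeR adjusted p = 0.000218). Mcm10 stood at 66.1, 47.9 and 38.8 CPM with TGF-beta, against 110.0, 95.0 and 74.0 CPM without additions. The highest value with TGF-beta lay below the lowest without it, and the fall was 1.82-fold (edgeR adjusted p = 0.00937). With lactic acid in both media it was 2.18-fold (edgeR adjusted p = 0.000964). Tk1 was called in 6 of 6 fits with 1 library left out without lactic acid, and Mcm10 in 4 of 6.

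Of the clamp and clamp loader, 3 of 6 genes fell without lactic acid: Pcna, Rfc3 and Rfc4. Rfc4 stood at 51.0, 47.9 and 42.0 CPM with TGF-beta, against 70.8, 74.0 and 61.5 CPM without additions, did not overlap, and was called in 6 of 6 fits with 1 library left out (edgeR adjusted p = 0.00139). Pcna was 225 ± 29.6 CPM with TGF-beta and 304 ± 32.2 CPM without additions (SD, n = 3 each, edgeR adjusted p = 0.0443). Ccne1, Cdc45, Orc6 and Pold3, an accessory subunit of polymerase delta, fell too, with log2 changes of -0.70, -0.55, -0.46 and -0.39. With lactic acid and without pairing, all of these genes but Orc6 and Pold3 were called lower, and so were 11 more: Rrm2, Orc1, Cdc6, Cdt1, E2f1, Chaf1a, Mcm5, Gins3, Prim1, Prim2 and Pole. With replicates paired, 9 of 10 licensing genes, Orc6 among them, and 8 of 9 polymerase and primase genes were lower with lactic acid. Of all genes, 15.1% were so called.

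Orc1, the largest origin recognition subunit, stood at 35.6, 32.8 and 21.1 CPM with TGF-beta and lactic acid, against 67.7, 56.3 and 42.9 CPM with lactic acid alone, so the groups did not overlap (edgeR adjusted p = 0.0303). Cdt1 stood at 92.9, 78.6 and 79.9 CPM with TGF-beta and lactic acid, against 126, 125 and 115 CPM with lactic acid alone (edgeR adjusted p = 0.00191), again without overlap. Rrm2 stood at 58.9, 32.7 and 27.9 CPM with both and 106, 83.7 and 50.7 CPM with lactic acid alone (-1.01 ± 0.29 log2, edgeR adjusted p = 0.0209), where the highest library with both lay above the lowest with lactic acid alone. E2f1 stood at 41.7, 35.9 and 27.0 CPM with both and 59.5, 52.2 and 42.7 CPM with lactic acid alone (edgeR adjusted p = 0.0329), with no overlap.

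The Mcm2 to Mcm7 genes were not one block at 24 h. Mcm5 was called lower with lactic acid present (-0.50 ± 0.16 log2, edgeR adjusted p = 0.0405). Mcm6 stood at 967, 911 and 844 CPM with TGF-beta, against 878, 895 and 814 CPM without additions, which overlapped and differed by 0.07 ± 0.14 log2, not called in either medium. With replicates paired, Mcm2, Mcm3, Mcm4, Mcm5 and Mcm7 were called lower in both media and Mcm6 in neither.

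The calls at 24 h depended on single libraries. Without lactic acid the count of called genes ran from 2 to 15 with 1 library left out: 2 without replicate 1 of the untreated group, 3 without its replicate 2, and 15, 3 and 2 without replicates 1, 2 and 3 of the TGF-beta group. With lactic acid it was 4 and 8 without replicates 1 and 2 of the group with lactic acid alone, and 7 and 5 without replicates 2 and 3 of the group with both, and up to 25 in the other fits. With female 72 h libraries alone, which here changes only the spread shared over all groups, 21 fell without lactic acid and 33 with it, and the count without lactic acid was 14 by DESeq2 and 25 with those 2 groups fitted alone. The summed B cell list was 131 to 134 CPM with TGF-beta, against 233 to 253 CPM without additions, and the summed CD8 and natural killer list 74.1 to 74.8 CPM against 127 to 148 CPM. Their part in these results was not tested.

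**Figure D3:**
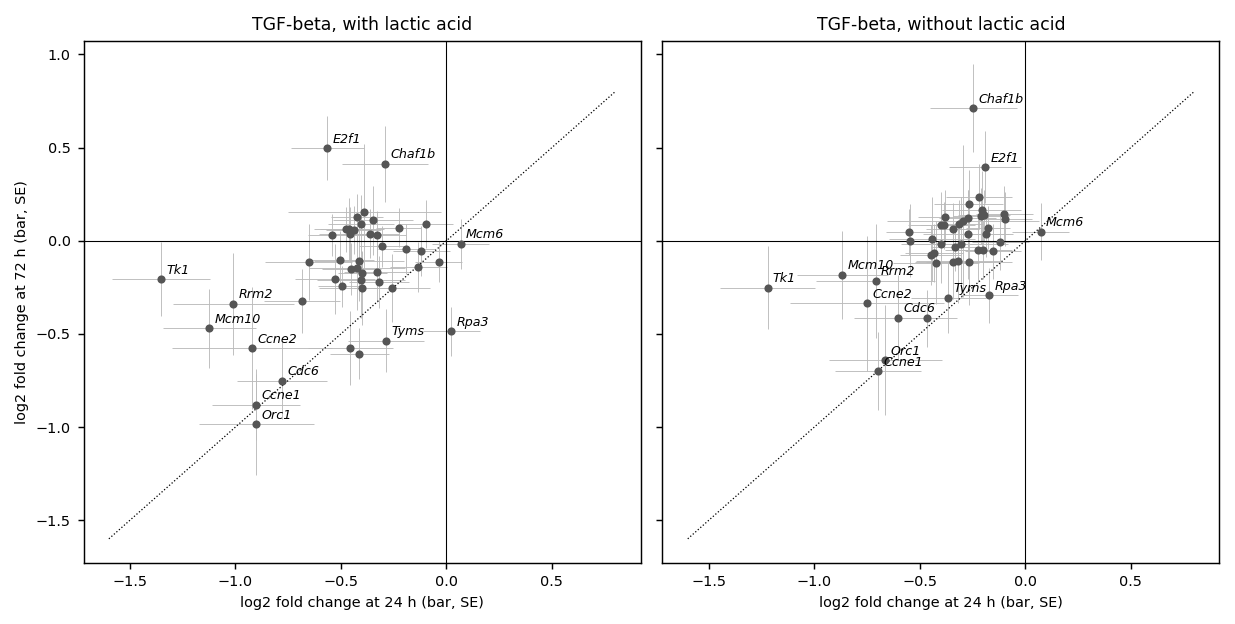
Log2 fold change with TGF-beta at 72 h (y axis) against that at 24 h (x axis) in Tcon, 1 point for each of the 46 genes with SE bars, with lactic acid (left) and without it (right). The dotted line marks equal change. Most points lie left of 0 on the x axis and nearer 0 on the y axis, Orc1 and Ccne1 lie near the dotted line, and Chaf1b lies above 0 at 72 h in both panels.

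At 72 h TGF-beta lowered cyclin E1. Without pairing, 3 of 10 licensing and helicase loading genes were called lower with lactic acid present, and 1 of 10 without it. The count of 3 was near the 22.5% of all genes called lower with lactic acid present. Without lactic acid 1 gene rose and 2 fell, against 12.8% and 11.7% of all genes, and with lactic acid 1 rose and 7 fell, against 22.5% and 22.5%. The share called among the members was below that among all genes, at 6.52% against 24.5% without lactic acid and 17.4% against 45.0% with it. With replicates paired within time, 2 rose and 7 fell without lactic acid, against 21.3% and 24.1% of all genes, and 2 rose and 20 fell with it, against 29.1% and 30.9%. Tcon without additions had 2 libraries at 72 h, and without lactic acid the count of called genes was 0 without replicate 2 of that group, and 1 without any single library with TGF-beta. With lactic acid, the summed CD8 and natural killer list was 142 to 204 CPM with TGF-beta and 60.4 to 110.3 CPM without it, and the B cell list 186 to 194 CPM and 105 to 135 CPM, and their part was not tested.

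Orc1, Orc6, Cdc6 and Ccne1 fell with TGF-beta at 72 h with lactic acid present. Orc1 stood at 24.9, 41.1 and 46.1 CPM with TGF-beta and lactic acid, against 57.8, 85.5 and 78.4 CPM with lactic acid alone. The groups did not overlap, and the fall was 1.98-fold (-0.99 ± 0.27 log2, edgeR adjusted p = 0.00493). Ccne1 stood at 67.1, 82.9 and 89.9 CPM with both, against 153, 147 and 142 CPM with lactic acid alone, and was 1.84-fold lower (edgeR adjusted p = 0.000652). Cdc6 was 1.68-fold and Orc6 1.52-fold lower in the same comparison, also without overlap. All 4 were called in each of 6 fits with 1 library left out. With female 72 h libraries alone, Orc1, Ccne1 and Orc6 were called (edgeR adjusted p = 0.00171, 0.00562 and 0.0189) and Cdc6 was not (edgeR adjusted p = 0.0519).

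Without lactic acid, Ccne1 and Orc6 fell, and Ccne1 stood at 65.0, 78.1 and 78.2 CPM with TGF-beta, against 109.9 and 129.7 CPM without additions, with no overlap (edgeR adjusted p = 0.0168). With 1 library left out Ccne1 was called in 3 of 5 fits, not without replicate 1 with TGF-beta or replicate 2 without additions. Orc6 was called in 0 of 5 such fits. Orc1 was 39.4 ± 7.79 CPM with TGF-beta (n = 3) and 61.4 ± 23.6 CPM without additions (SD, n = 2), with overlap and no call (edgeR adjusted p = 0.123). It was lower in each pair, at 30.7 and 41.7 CPM with TGF-beta, against 44.8 and 78.1 CPM, for replicates 1 and 2. With replicates paired, 3 of 10 licensing and helicase loading genes were called lower without lactic acid, against 24.1% of all genes.

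Tyms, Pold2 and Rpa3, the smallest subunit of the single-strand binding complex, completed the 7 that fell with lactic acid present. Rpa3 stood at 21.2, 24.0 and 25.6 CPM with both, against 32.1, 35.0 and 32.0 CPM with lactic acid alone, and fell 1.40-fold (edgeR adjusted p = 0.00474). At 24 h Rpa3 had 26.4, 21.4 and 20.3 CPM with both and 22.9, 23.1 and 20.9 CPM with lactic acid alone, with overlap and no call.

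Without pairing, Chaf1b and E2f1 were the members called higher with TGF-beta at 72 h, each in 1 medium. With replicates paired, 1 of 3 chromatin genes and 1 of 3 G1/S genes were called higher in each medium. Of all genes, 21.3% were so called without lactic acid and 29.1% with it. Chaf1b, a subunit of the histone chaperone that reassembles chromatin behind the fork, stood at 53.7, 84.3 and 80.1 CPM with TGF-beta, against 40.6 and 48.2 CPM without additions. The groups did not overlap, and it was 1.64-fold higher (edgeR adjusted p = 0.0284), but it was called in only 1 of 5 fits with 1 library left out. E2f1 stood at 58.4, 76.3 and 73.8 CPM with TGF-beta and lactic acid, against 47.2, 51.4 and 49.0 CPM with lactic acid alone, and was 1.41-fold higher (edgeR adjusted p = 0.0211), called in 4 of 6 such fits. Every E2f1 value with both additions lay above every value with lactic acid alone.

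The pocket proteins Rbl1, Rb1 and Rbl2, which hold E2F factors in check, rose with TGF-beta at 72 h with lactic acid present, and Rbl1 and Rb1 rose without it. Rbl1 stood at 175 ± 10.2 CPM with TGF-beta and lactic acid and 84.1 ± 7.47 CPM with lactic acid alone (SD, n = 3 each), a log2 rise of 1.06 ± 0.09 (edgeR adjusted p = 1.24e-09). Rb1 rose by 0.94 ± 0.15 and Rbl2 by 0.70 ± 0.14 (edgeR adjusted p = 2.17e-05 and 0.000226). At 24 h, Rbl2 rose by 0.66 ± 0.14 without lactic acid (edgeR adjusted p = 0.00177) and Rbl1 was not called (edgeR adjusted p = 0.996). In all, 3 of the 12 E2F and pocket protein genes rose and 3 fell at 72 h with lactic acid, against 22.5% and 22.5% of all genes, and E2f8, a repressor E2F, fell at 24 h with lactic acid (-1.13 ± 0.29 log2, edgeR adjusted p = 0.0121).

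Of 20 G2 and M phase genes, 3 fell at 24 h without lactic acid and 6 with it, against 3.35% and 4.38% of all genes. Among those with lactic acid was Ccna2, the S phase and mitotic cyclin A2. It stood at 11.2 ± 4.25 CPM with both additions and 27.5 ± 10.2 CPM with lactic acid alone (SD, n = 3 each, edgeR adjusted p = 0.0164). With replicates paired, 16 and 15 of the 20 fell at 24 h, against 15.1% and 15.1% of all genes. At 72 h with lactic acid 3 rose, Mki67, Cenpf and Kif11, and none was called lower, against 22.5% and 22.5% of all genes. With replicates paired 9 were higher and 3 lower with lactic acid, and 5 higher and 3 lower without it. Of all genes, 29.1% and 30.9% were so called with lactic acid, and 21.3% and 24.1% without it. Mki67 had 1091 ± 174 CPM with both and 636 ± 114 CPM with lactic acid alone (edgeR adjusted p = 0.0101). Nucleotide synthesis genes fell at 72 h with lactic acid, 13 of 19, with 2 higher and a median of -0.69 log2. Shmt2, a mitochondrial serine enzyme, fell by 0.83 (edgeR adjusted p = 1.39e-05). Samhd1, the deoxynucleotide hydrolase, rose there by 0.75 ± 0.25 log2, and at 24 h without lactic acid by 1.07 ± 0.25. Orc2 and Recql4, further licensing and firing factors, fell at 72 h with lactic acid, by 0.74 and 0.55, and Cdc7, the kinase that fires origins, rose by 0.34 ± 0.10. The checkpoint kinase Atr rose by 0.81 ± 0.13.

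The difference between the times was tested directly, as the log2 effect of TGF-beta at 72 h minus that at 24 h. With lactic acid 5 of the 46 genes (10.9%) were called, all positive, against 14.4% of all genes. They were Tk1 (1.15 ± 0.31, edgeR adjusted p = 0.0129), E2f1 (1.06 ± 0.24, edgeR adjusted p = 0.00436), Cdt1, Pole and Gins3. E2f1 rose at 72 h and fell at 24 h, and both changes were called. Without lactic acid Rfc4 alone was called (0.60 ± 0.17, edgeR adjusted p = 0.0339), or 2.17% of the members, against 5.73% of all genes. Without pairing, the share of members called was thus below that of all genes in each medium. With replicates paired within time 25 were positive and 1, Rpa3, negative with lactic acid, and 20 were positive without it, against 33.6% and 19.4% of all genes called. Orc1, Orc6, Cdc6 and Ccne1 were called in none of these tests of the difference, with or without pairing. With female 72 h libraries alone, 15 were called with lactic acid and 2 without it, and the compared groups alone gave 3 and 0. Without lactic acid, Rfc4 was called in 3 of 11 fits with 1 library left out. The count was 4 without replicate 1 with TGF-beta at 72 h, and 0 without replicate 1 or 2 of the untreated group at 24 h, replicate 1 of it at 72 h, or replicate 2 or 3 with TGF-beta at either time. With lactic acid it was 8 without replicate 3 of the group with lactic acid alone at 24 h, and 2 without replicate 2 of the group with both at 24 h. It was 3 without replicate 1 or 2 with lactic acid alone at 24 h, replicate 3 with both at 24 h, or replicate 2 or 3 of either group at 72 h.

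**Figure D4:**
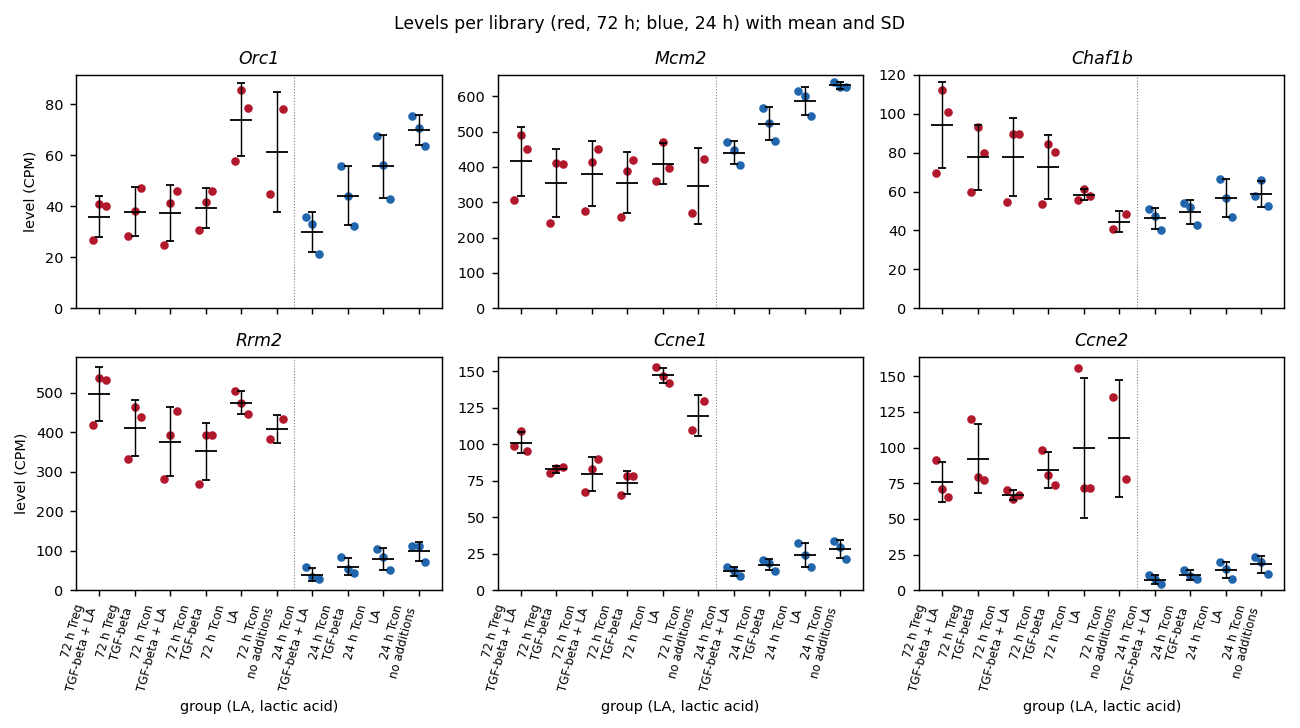
Level (CPM) per library of 6 genes in the 10 groups, 72 h in red and 24 h in blue, with the group mean (long line) and SD (bar), on axes from 0. The Orc1 and Ccne1 means are lower in the 4 groups with TGF-beta at 72 h than in the 2 without it, the Chaf1b means are higher there, the Mcm2 mean is highest at 24 h without additions, and Rrm2 and Ccne2 are low in all 24 h libraries.

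Lactic acid gave small differences between these genes' group means. In none of the 5 comparisons was a member called by edgeR's quasi-likelihood test, and DESeq2 called none either. At an unadjusted p under 0.05, 2 members passed at 24 h without TGF-beta, 14 at 24 h with it, 2 and 0 in Tcon at 72 h without and with TGF-beta, and 3 in Treg. Of all 14375 genes, 1027, 1197, 1289, 2036 and 2454 passed that unadjusted level in that order. By adjusted p, 0.0835%, 0.23%, 0.0696%, 2.16% and 3.51% of all genes were called in the same order.

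With replicates paired within time, lactic acid lowered replication genes at 24 h. Of the 46, 22 fell with TGF-beta present, against 2.44% of all genes, and 7 fell without TGF-beta, against 1.15%, and none rose. Values were lower in all 3 same-numbered pairs for 42 genes with TGF-beta and 38 without it, against 22.5% and 24.1% of all genes. The medians were -0.26 and -0.16 log2, against 0.01 and 0.00 over all genes.

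Rrm2 stood at 58.9, 32.7 and 27.9 CPM with lactic acid and TGF-beta, against 83.7, 53.6 and 43.1 CPM with TGF-beta alone, for replicates 1, 2 and 3. Each replicate was lower with lactic acid, while the 2 groups overlapped as sets. The change was -0.60 ± 0.29 log2 (edgeR adjusted p = 0.594, and 0.0106 with replicates paired). E2f1 stood at 41.7, 35.9 and 27.0 CPM with both, against 57.5, 48.8 and 40.5 CPM with TGF-beta alone (edgeR adjusted p = 0.362, and 0.000361 paired). Cdc6 stood at 44.3, 36.9 and 22.4 CPM with both, against 62.2, 48.5 and 35.6 CPM with TGF-beta alone (edgeR adjusted p = 0.532, and 0.00115 paired). All 3 were lower in each pair. Pole, the catalytic subunit of leading-strand polymerase epsilon, Pola1 and Chaf1a were also called only with replicates paired, at -0.40, -0.39 and -0.40 log2. Without TGF-beta the 7 genes were Tyms, Orc1, Cdc6, Gins2, Rfc3, Orc6 and Mcm5, at -0.42 to -0.23 log2.

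At 72 h the log2 change was positive for 40 genes in Treg, and for 30 and 44 in Tcon with and without TGF-beta. In Treg, 14 of the 46 genes rose with replicates paired and none fell, against 9.91% and 9.79% of all genes, and 31 were higher in every pair, against 26.4%. Mcm7 stood at 213, 379 and 351 CPM with lactic acid, against 117, 297 and 269 CPM without it in Treg, for replicates 1, 2 and 3. It was higher in each pair, by 0.47 ± 0.36 log2 (edgeR adjusted p = 0.572, and 0.00036 paired). Ccne1 stood at 98.5, 109 and 95.7 CPM with lactic acid, against 80.3, 83.8 and 84.8 CPM without it. Prim2, the large primase subunit, stood at 85.4, 84.4 and 89.0 CPM with lactic acid, against 63.1, 77.1 and 73.1 CPM without it. Neither gene's groups overlapped. Of the 46 genes, 3 were higher with no overlap in Treg, against 9.13% of all genes, so this was no more common among the members. Their paired edgeR adjusted p were 0.0115 and 0.00764. With female 72 h libraries alone, Rpa1, the DNA-binding subunit of the single-strand binding complex, was the 1 member called (edgeR adjusted p = 0.0491).

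In Tcon at 72 h the genes gave 1 paired call in each medium. With TGF-beta it was Mcm7, at 171, 278 and 302 CPM with lactic acid, against 101, 239 and 242 CPM without it, higher in each pair (edgeR adjusted p = 0.00312 paired), against 6.7% of all genes called higher. The median was 0.04 log2 there. Without TGF-beta it was Pold2, at 110.3, 145 and 147 CPM with lactic acid and 71.8 and 119 CPM without it (edgeR adjusted p = 0.0092 paired), against 1.12% of all genes, and the median was 0.16 log2 over 2 pairs.

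**Figure D5:**
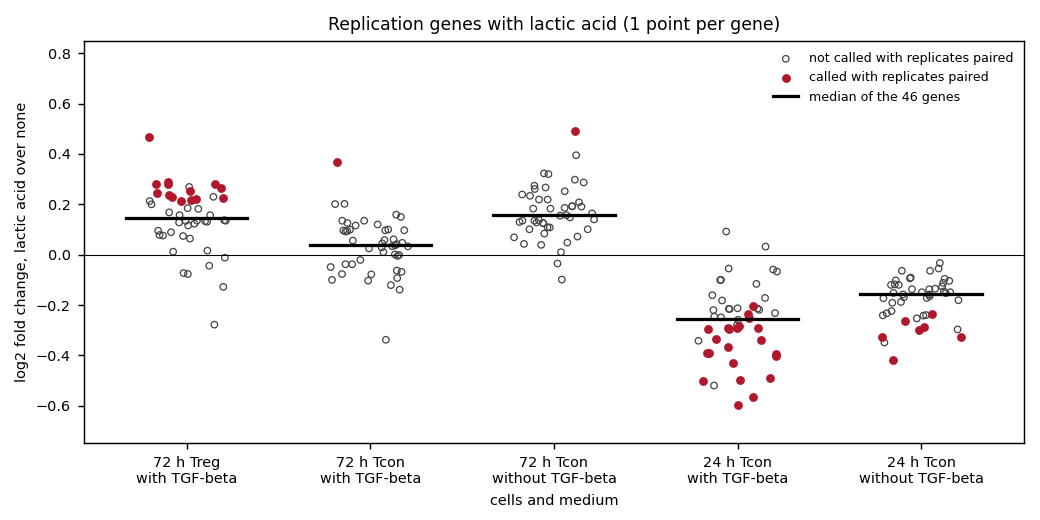
Log2 fold change with lactic acid over none for each of the 46 genes (points) in 5 comparisons, with the median as a line. Filled red points were called with replicates paired within time. The median is 0.15 in Treg at 72 h, 0.04 and 0.16 in Tcon at 72 h with and without TGF-beta, and -0.26 and -0.16 in Tcon at 24 h with and without it.

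The change of the lactic acid effect with time was tested in Tcon with TGF-beta. None of the 46 genes was called (0 by DESeq2). An unadjusted p under 0.05 was found for 6 of them and for 821 of all 14375 genes. With replicates paired 16 were called, all positive, against 3.36% of all genes. E2f1 had the smallest p of the members in both fits, at 0.69 ± 0.24 log2 (edgeR adjusted p = 0.775, and 0.000518 paired). The effect of lactic acid was not shown to differ with TGF-beta at 24 h or at 72 h, or between Treg and Tcon: no member was called by edgeR with or without pairing, DESeq2 called 0, and none had an unadjusted p under 0.05. With replicates paired, 6 of 20 G2 and M phase genes were lower at 24 h with TGF-beta, against 2.44% of all genes. In Treg 10 of 20 were higher, against 9.91% of all genes, and none was called in the unpaired fit of either comparison. Of the other licensing and firing factors Donson, a factor that helps assemble the active helicase, was called higher in Treg without pairing (0.32 ± 0.07 log2, edgeR adjusted p = 0.0127).

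The summed B cell list, nearly all Ighm, was 259.8 to 301 CPM with lactic acid and 102 to 152 CPM without it in Treg, while its defining genes Cd79a and Ms4a1 were at or near 0. The mitochondrially encoded transcripts summed to 8385 to 10042 CPM with lactic acid and 6453 to 13342 CPM without it in Treg, and to 10412 to 16955 CPM and 8331 to 9217 CPM in Tcon with TGF-beta. Their part in the lactic acid results was not tested.

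Treg were set against Tcon of the same medium at 72 h, the populations divided by the Foxp3 reporter. Without lactic acid no member was called, with or without pairing (unadjusted p under 0.05 for 0, and 0 by DESeq2), against 0.216% of all genes, and the largest log2 difference was 0.24 ± 0.20, for Tk1. With lactic acid none was called either (0 by DESeq2), against 2.55% of all genes. An unadjusted p of 0.05 was passed there by 1 member and by 1894 of all 14375 genes. With replicates paired, 12 were higher in Treg with lactic acid and none lower, against 7.0% and 5.75% of all genes. Among them, Pcna stood at 323, 384 and 381 CPM in Treg, against 254, 315 and 330.5 CPM in Tcon, for replicates 1, 2 and 3. Each Treg library lay above the Tcon library of the same number, though the groups overlapped (edgeR adjusted p = 0.411, and 0.00392 paired). Rrm2 stood at 417, 537 and 533 CPM in Treg and 281, 392 and 454 CPM in Tcon (edgeR adjusted p = 0.607, and 0.0288 paired), again higher in each pair. Rpa1, Rpa2, Fen1 and Lig1, which bind single strands, trim flaps and seal nicks, made up 4 of the 12, at 0.25 to 0.31 log2. In all 36 of the 46 genes were higher in every pair, against 27.4% of all genes. The summed B cell list was 259.8 to 301 CPM in Treg and 186 to 194 CPM in Tcon with lactic acid. The mitochondrially encoded transcripts summed to 8385 to 10042 CPM in Treg and 10412 to 16955 CPM in Tcon, without overlap. Their part in these results was not tested. Of 20 G2 and M phase genes, 8 were higher in Treg with replicates paired.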

How the data were processed

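Per the labels' protocols, poly(A) RNA of sorted cells was made into stranded libraries and read as single reads of 65 bases. Per the submitters' processing notes, the authors used STAR 2.7.3a, HTSeq 0.12.4, DESeq2 1.30.1 and build GRCm39; the deposited values are HTSeq gene counts, not normalized. Annotation release and strand setting: not given in the sources used here. Low-quality alignments (13.3% to 17.0%), reads in no feature (5.72% to 11.2%) and ambiguous reads (1.01% to 1.13%) stayed out of library sizes. Symbols were matched for 52081 of 55414 identifiers.

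Counts of all 29 libraries were fitted together with edgeR 4.0.16 in R 4.3.3 (TMM scaling, quasi-likelihood test, group means). The filter (filterByExpr, minimum count 10) left 14375 genes, including all 46 members, and p-values were Benjamini-Hochberg adjusted over them, with calls below 0.05. Of 21 tests, 15 compare groups and 6 compare effects. The standard error is the log2 fold change divided by the square root of F. Simulated counts with known changes were used to test the fit. They were drawn independently per library, so the fit was not tested under deviations shared by same-numbered libraries. The lowest count of any member in any library was 54, and counting error was not set against the spread between libraries gene by gene. Library sizes ranged from 9754511 to 14315313 counts.

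Same-numbered libraries of a time point deviated together in every within-time comparison (correlation of deviations from group means over genes, 0.12 to 0.77). For other-numbered libraries it was -0.34 to 0.02 at 24 h and -0.72 to 0.51 at 72 h. Deviations from a group mean cancel out within the group, so the other-numbered values are pushed opposite to the same-numbered ones. With 2 libraries without additions at 72 h they were exact mirrors, such as 0.723 and -0.723 for lactic acid. The contrast between same- and other-numbered libraries was thus partly fixed in advance. At 72 h with lactic acid, replicate 3 with TGF-beta and replicate 2 without it gave 0.335, above same-numbered 2 and 3 (0.272 and 0.245). So at 72 h replicate 1 was set apart more clearly than 2 was from 3. Libraries of 1 time with the same number were treated as pairs, a choice resting on the data and not on a label. For the pair of comparisons with 2 libraries without additions at 72 h this rests on the comparisons with 3 pairs. Between times, the numbers did not pair libraries (-0.06 to 0.15). Replicate number and sex cannot be told apart. The alternative settings comprised RLE scaling, DESeq2 1.42.0, all genes without a filter, the compared groups alone, a replicate block over all libraries or within time, female 72 h libraries alone, and each library left out.

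The 46 members and the other gene lists were chosen with earlier results of these data known. Genes named are a panel (Mcm2, Mcm5, Cdc6, Cdt1, Cdc45, Pcna, Rrm2, Tyms, Ccne1, Ccne2, E2f1, Slbp, Chaf1a, Orc1), the called members with the 4 largest rises and falls per comparison, the 4 of smallest p per comparison of effects, and up to 3 called genes of each other list. Mcm7, Rfc4, Rpa1, Rpa3, Prim2, Lig1, Pole, Pola1, Fen1 and the other members named beyond that rule were chosen after their values were seen.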

Additional observations from a re-analysis of the deposited data

Results flagged for a closer look

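By a test of the difference itself, the effect of TGF-beta in Tcon differed between 72 h and 24 h for few members. With lactic acid these were 5 of the 46 genes (10.9%), against 14.4% of all genes. Without lactic acid it was 1 (2.17%), against 5.73%. Members were thus called less often than genes in general, without pairing. Each difference is the log2 effect at 72 h minus that at 24 h. With lactic acid the differences were 1.148 for Tk1, 1.061 for E2f1, 0.571 for Cdt1 and 0.55 for Pole, 4 of the 5, and without lactic acid the difference was 0.596 for Rfc4. With 1 library left out, Tk1 and E2f1 were called in 12 of 12 fits, Cdt1 in 11 of 12, Pole in 4 of 12 and Rfc4 in 3 of 11.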

How the results depend on the processing

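Under settings that kept all or most libraries, 2156 of the named genes' values kept their side of the threshold. Another 139 passed it only under the alternative, 15 no longer passed it, and none called in either fit changed direction. With 1 library left out these counts were 2376, 14, 108 and 0. The direction of values called in neither fit was not compared. With replicates paired within time (replicate block within time), the members called for lactic acid were 7 and 22 at 24 h without and with TGF-beta, 1 and 1 in Tcon at 72 h, and 14 in Treg. For TGF-beta the block gave 36 and 39 at 24 h and 9 and 22 at 72 h, without and with lactic acid, and for Treg against Tcon with lactic acid 12. The same block gave 31 at 72 h against 24 h without additions and 39 with lactic acid alone, where the numbers do not pair libraries. It gave 20 and 26 for TGF-beta by time without and with lactic acid, and 16 for lactic acid by time with TGF-beta. A replicate block over all libraries gave 15 for TGF-beta at 24 h without lactic acid and 4 for TGF-beta by time without it.

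With female 72 h libraries alone, 1 member was called for lactic acid at 24 h with TGF-beta and 1 in Treg, 21 and 33 for TGF-beta at 24 h without and with lactic acid, and 2 and 15 for TGF-beta by time. Without lactic acid, DESeq2 gave 14 for TGF-beta at 24 h and 4 for TGF-beta by time, and no filter on low counts gave 3 for the last. The compared groups alone gave 25 for TGF-beta at 24 h and 1 at 72 h without lactic acid, and 0 and 3 for TGF-beta by time without and with it. The causes were not tested. With each library left out, the counts ran from 2 to 15 and from 4 to 25 for TGF-beta at 24 h without and with lactic acid, from 0 to 2 and from 7 to 7 at 72 h, from 9 to 18 for 72 h against 24 h without additions, and from 0 to 4 and from 2 to 8 for TGF-beta by time. Under RLE scaling the share of calls that were higher was 54.5% against 64.8% of all genes for TGF-beta at 24 h with lactic acid, 57.1% against 69.7% for lactic acid at 24 h with TGF-beta, 59.0% against 46.8% and 52.3% against 41.8% for TGF-beta by time with and without lactic acid, each against the value with TMM. Among members it was 82.6% against 95.2% at 72 h over 24 h with lactic acid alone, and 50.0% against 33.3% for TGF-beta at 72 h without lactic acid.

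Tcon without additions at 72 h had 2 libraries, which limits every comparison that uses it. Reads were not counted per molecule, and levels are relative to all RNA of a library.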
